A study of Mus musculus with 9 samples.

Results

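The 10 genes described here (Stab2, Clec4g, Pecam1, Kdr, Lyve1, Oit3, Bmp2, Aqp1, Ptprb and Cdh5) are a set of textbook markers of liver sinusoidal endothelium, chosen by name. They are 10 of the 45777 genes in the deposited tables. Each matched 1 gene ID, and all 10 were among the 13820 genes that reached 1 TPM (a transcript's abundance per length, scaled to the same total in every sample) in at least 3 of the 9 samples and were tested. The samples are bulk RNA-seq of CD11b+ cells purified from dissociated mouse liver 48 hours after an overdose of acetaminophen (APAP), a model of acute liver failure. All 9 had APAP. The 3 groups hold 3 samples each: PBS in place of vesicles, vesicles called SIRP-EV that were produced by HEK cells, a line of human embryonic kidney origin (here HEK-EV), and SIRP-EV produced by MSC (here MSC-EV), both kinds being injected intravenously 8 hours after APAP. The labels used here do not spell out SIRP or MSC and give no strain, sex or age of the mice. No uninjured group and no vesicles without SIRP were analysed here. The labels do not say whether replicates came from separate mice, so p-values measure only the spread between these samples, which may be technical.

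Sinusoidal endothelial cells line the capillaries of the liver lobule. They are fenestrated, lack a continuous basement membrane and clear hyaluronan, denatured collagen and other waste from blood through scavenger receptors. They also release signals to neighbouring cells, among them Bmp2, which drives hepatocytes to make the iron hormone hepcidin. APAP injury is known to damage these cells early. Stab2, Clec4g and Oit3 mark them most narrowly, whereas Lyve1 is shared with lymphatic vessels and Kdr, Cdh5, Ptprb and Pecam1 with other endothelium. Pecam1 is also found on platelets and some leukocytes, and Aqp1 also on bile duct and red blood cells.

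CD11b is a myeloid surface protein, and the samples were led by myeloid transcripts: Itgam, which encodes CD11b, lay at 196 to 434 TPM, Csf1r at 945 to 1156 and Lyz2 at 13329 to 18741. The 10 endothelial genes together made up 0.0160% to 0.0553% of all TPM. Their transcripts are thus a minor part of a myeloid fraction, and in bulk samples fewer endothelial cells and less RNA per endothelial cell cannot be told apart. The files hold no read counts, so depth in reads is unknown. Read coverage per unit of FPKM, which grows with depth, was 5.28 to 6.32 in PBS, 6.25 to 6.47 in HEK-EV and 6.58 to 6.84 in MSC-EV. Mean coverage over a member ran from 10.9 reads per base (Bmp2, MSC-EV replicate 2) to 257 (Cdh5, HEK-EV replicate 3). HEK-EV replicates 1 and 2 and MSC-EV replicates 1 and 3 also held pancreatic acinar transcripts. The sum of 8 acinar genes was 32.4, 877, 118 and 2447 TPM there against 11.5 to 14.1 TPM in the other 5 samples. Of those 8 genes 0 passed the test described below. The most abundant, the digestive enzyme genes Ctrb1 and Amy2a5, were listed at 0 in those other 5 samples and reached 536 and 491 TPM in MSC-EV replicate 3. Every comparison below was also made without these 4 samples, which leaves 1 library in each vesicle group (HEK-EV replicate 3 and MSC-EV replicate 2).

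Promoters are shown for 3 members, as a description only. RefSeq windows on GRCm38.p6 (250 bases before to 50 after a start, 32851 windows) were held for 4 members: Stab2, Clec4g, Kdr and Aqp1. Only bases upstream of the gene's own span are printed, 5′ to 3′ on the gene's strand. Those of Stab2 are chr10:87008039-87008192 (minus strand, 154 bases), those of Clec4g chr8:3720696-3720901 (minus strand, 206 bases) and those of Aqp1 chr6:55336049-55336298 (plus strand, 250 bases). The Kdr window, chr5:75978406-75978705, lies wholly inside the gene's own span, so it holds no upstream bases to print. Capitals mark GGAA, the core of sites bound by ETS factors, or its complement TTCC.
Stab2: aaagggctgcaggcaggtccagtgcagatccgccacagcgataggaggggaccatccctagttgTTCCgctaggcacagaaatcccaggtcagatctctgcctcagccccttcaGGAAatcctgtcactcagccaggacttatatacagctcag
Clec4g: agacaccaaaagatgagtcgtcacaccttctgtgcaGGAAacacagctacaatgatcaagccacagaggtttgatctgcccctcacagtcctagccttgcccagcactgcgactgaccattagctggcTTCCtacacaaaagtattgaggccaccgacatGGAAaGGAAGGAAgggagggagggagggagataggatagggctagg
Aqp1: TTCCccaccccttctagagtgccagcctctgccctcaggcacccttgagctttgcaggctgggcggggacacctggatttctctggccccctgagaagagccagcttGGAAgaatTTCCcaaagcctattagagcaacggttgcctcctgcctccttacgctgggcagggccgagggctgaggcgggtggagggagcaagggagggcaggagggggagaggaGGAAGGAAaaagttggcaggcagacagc
Both strands of the 4 full windows were searched for strings bound by 4 factor families that act in endothelium. The ETS search used CAGGAAG together with the form CCGGAAG and finds 20.9% of all windows. The GATA string AGATAAG is in 3.04% of windows. For FOX factors, GTAAACA is in 3.65%. For SOX factors, ACAATGG is in 3.66%. None of these strings was in any of the 4 windows, which says only that these letters are not there. The shorter core GGAA, which lies inside both ETS strings and was looked for after those had no match, occurred 6 times in the Stab2 window and 5 times in each of the other 3. It is in 96.0% of all windows with a median of 3 occurrences, so its presence sets none of these promoters apart.

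In the MSC-EV samples all 10 genes had lower mean levels than in PBS, with a ratio of group means from 0.379 (Lyve1) to 0.607 (Cdh5). None passed the adjusted threshold of 0.05, which 5.11% of tested genes passed in either direction and 3.25% as lower. The HEK-EV group lay near PBS on average but spanned a wide range, and 1 of its samples was low for all 10 genes. Values below are TPM, which is per length and so comparable between genes. A log2 difference is a difference of group means of log2(TPM + 1), given with the standard error (SE) that limma estimated, and p was adjusted by Benjamini-Hochberg over all 13820 genes.

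**Figure D1:**
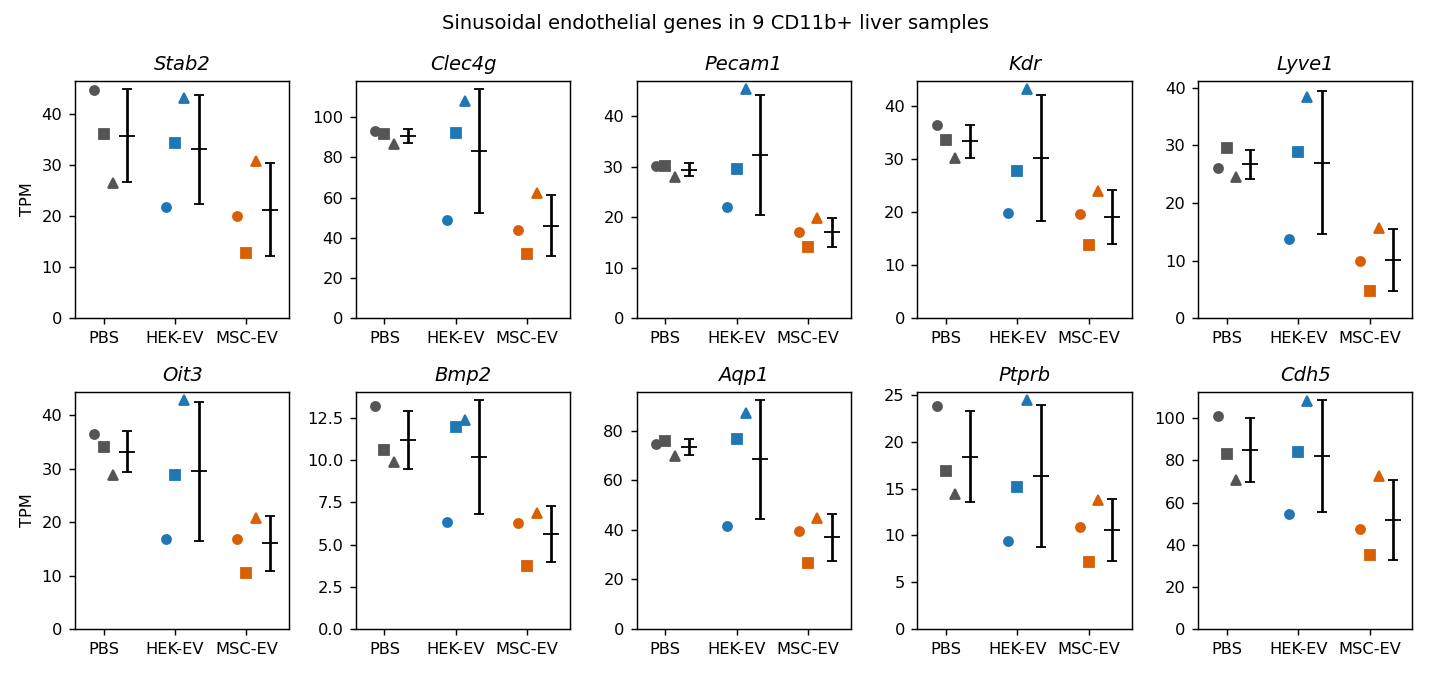
TPM of each of the 10 genes in every sample, as points, for PBS, HEK-EV and MSC-EV (3 samples each), with group means and SD. MSC-EV means are the lowest in every panel. HEK-EV replicate 3 is the highest of the 9 points for 8 genes and PBS replicate 1 for the other 2, Stab2 and Bmp2.

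The scavenger and hyaluronan receptors come first. Stab2, a large receptor that removes hyaluronan from blood (chr10:86841194-87008038, minus strand, gene ID 192188), was at 44.6, 36.1 and 26.5 TPM in PBS, 21.8, 34.3 and 43.0 in HEK-EV, and 19.9, 12.8 and 30.8 in MSC-EV. The MSC-EV and PBS samples overlapped, since MSC-EV replicate 3 exceeded PBS replicate 3. Means were 35.7 ± 9.04 in PBS, 33 ± 10.7 in HEK-EV and 21.2 ± 9.07 in MSC-EV (SD, n = 3), and the log2 difference of MSC-EV from PBS was -0.78 (SE 0.326, limma adjusted p = 0.189). With 1 sample left out that difference ranged from -1.082 (without MSC-EV replicate 3) to -0.48 (without MSC-EV replicate 2). Lyve1, a hyaluronan receptor shared with lymphatic vessels (chr7:110850607-110862953, minus strand, gene ID 114332), was at 26.0, 29.5 and 24.5 TPM in PBS, 13.8, 28.8 and 38.3 in HEK-EV, and 9.99, 4.78 and 15.6 in MSC-EV. Every MSC-EV sample lay below every PBS sample, and only HEK-EV replicate 1 fell within the MSC-EV range. The Lyve1 mean was 26.7 ± 2.55 TPM in PBS, 27.0 ± 12.4 in HEK-EV and 10.1 ± 5.41 in MSC-EV, and its log2 difference of -1.44 (SE 0.406, limma adjusted p = 0.0731) was the largest of the 10.

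Clec4g encodes LSECtin, a C-type lectin of sinusoidal endothelium (chr8:3707066-3720695, minus strand, gene ID 75863). It stood at 93.2, 91.7 and 86.5 TPM in PBS, 49.0, 92.2 and 108 in HEK-EV, and 43.8, 32.1 and 62.2 in MSC-EV. The PBS samples were within a narrow range, and all MSC-EV samples were beneath it. Means were 90.5 ± 3.50, 83.2 ± 30.7 and 46.0 ± 15.2 TPM, and MSC-EV differed from PBS by -1.01 on the log2 scale (SE 0.290, limma adjusted p = 0.0765). Oit3, a zona pellucida domain protein used as a marker of these cells (chr10:59422960-59441779, minus strand, gene ID 18302), was at 36.5, 34.1 and 28.9 TPM in PBS, 16.9, 28.8 and 42.8 in HEK-EV, and 16.8, 10.5 and 20.7 in MSC-EV. Again the MSC-EV and PBS samples did not overlap, and HEK-EV replicate 1 was next to MSC-EV replicate 1. For Oit3 the means were 33.2 ± 3.89, 29.5 ± 13 and 16.0 ± 5.18 TPM, with a log2 difference of -1.05 between MSC-EV and PBS (SE 0.313, limma adjusted p = 0.0832).

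Kdr encodes VEGFR2, the main signalling receptor for VEGF-A (chr5:75932827-75979072, minus strand, gene ID 16542). It was at 36.4, 33.5 and 30.2 TPM in PBS, 19.8, 27.7 and 43.2 in HEK-EV, and 19.7, 13.8 and 23.9 in MSC-EV. MSC-EV samples were all below PBS samples. Means were 33.3 ± 3.10, 30.2 ± 11.9 and 19.1 ± 5.07 TPM, and the log2 difference was -0.80 (SE 0.261, limma adjusted p = 0.104). Ptprb encodes VE-PTP, a phosphatase that acts on the angiopoietin receptor Tie2 and on VE-cadherin (chr10:116275502-116389538, plus strand, gene ID 19263). Its level was 23.8, 16.9 and 14.4 TPM in PBS, 9.41, 15.2 and 24.5 in HEK-EV, and 10.9, 7.16 and 13.8 in MSC-EV. The highest MSC-EV sample was only just below the lowest PBS sample. Ptprb means were 18.4 ± 4.86, 16.4 ± 7.60 and 10.6 ± 3.31 TPM, and the log2 difference of -0.75 (SE 0.327, limma adjusted p = 0.207) was the smallest of the 10.

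Cdh5 encodes VE-cadherin, which holds endothelial junctions together (chr8:104101613-104144504, plus strand, gene ID 12562). It was at 101, 83.1 and 70.9 TPM in PBS, 54.7, 84.0 and 108 in HEK-EV, and 47.4, 35.0 and 72.6 in MSC-EV. With Stab2 it was one of the 2 genes whose MSC-EV and PBS samples overlapped, again through MSC-EV replicate 3. Its means were 85.0 ± 15.2, 82.2 ± 26.6 and 51.6 ± 19.1 TPM, and the log2 difference was -0.76 (SE 0.288, limma adjusted p = 0.154). Pecam1, the junctional adhesion molecule CD31 (chr11:106654213-106715281, minus strand, gene ID 18613), was at 30.2, 30.2 and 27.9 TPM in PBS, 22.0, 29.5 and 45.4 in HEK-EV, and 17, 14.1 and 19.9 in MSC-EV. It was the only member whose MSC-EV samples were below every sample of both other groups. Pecam1 means were 29.4 ± 1.33, 32.3 ± 11.9 and 17 ± 2.94 TPM, and MSC-EV differed from PBS by -0.77 on the log2 scale (SE 0.220, limma adjusted p = 0.0754).

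Bmp2 is the secreted member of the set (chr2:133552159-133562896, plus strand, gene ID 12156). It was at 13.2, 10.6 and 9.91 TPM in PBS, 6.35, 12 and 12.4 in HEK-EV, and 6.26, 3.72 and 6.87 in MSC-EV. All MSC-EV samples were under all PBS samples, and HEK-EV replicate 1 was within the MSC-EV range. Means were 11.2 ± 1.73, 10.2 ± 3.37 and 5.62 ± 1.67 TPM, and the log2 difference was -0.91 (SE 0.258, limma adjusted p = 0.0739). Aqp1, a water channel of the sinusoidal lining (chr6:55336299-55348555, plus strand, gene ID 11826), was at 74.8, 75.7 and 69.6 TPM in PBS, 41.4, 76.5 and 87.2 in HEK-EV, and 39.5, 26.4 and 44.8 in MSC-EV. The PBS samples were close together and stood above every MSC-EV sample. Aqp1 means were 73.3 ± 3.30, 68.4 ± 24.0 and 36.9 ± 9.50 TPM, and its log2 difference of -1.0 (SE 0.264) had the smallest adjusted p of the 10 (limma, 0.0597).

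Predicted genes overlap 6 of the members, and whether the authors' counting used strand is not given in the sources used here. Those over Stab2, Kdr, Oit3, Ptprb and Cdh5 reached at most 0.385 TPM in any sample, and the one over Clec4g, Gm16553, reached 3.24 TPM.

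Set side by side, the order of the genes' levels changed little. In PBS the means ran from Clec4g, Cdh5 and Aqp1 through Stab2, Kdr, Oit3, Pecam1 and Lyve1 to Ptprb and Bmp2. PBS samples of neighbouring genes overlapped in that order except between Aqp1 and Stab2, between Lyve1 and Ptprb and between Ptprb and Bmp2. Clec4g, Cdh5 and Aqp1 were the top 3 and Bmp2 was the lowest in each of the 9 samples.

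Between MSC-EV and PBS, 10 of 10 members had a difference below 0, as did 47.7% of tested genes. All 10 were lower with an unadjusted p under 0.05, against a background of 13.1% of tested genes. That count was 6 without MSC-EV replicate 2, 7 without any 1 of PBS replicate 1, PBS replicate 2 and MSC-EV replicate 1, 6 when the fit had a term for acinar transcripts and 0 with coverage per FPKM as a covariate. Coverage per FPKM, which stands for depth here, was higher in every MSC-EV sample (6.58 to 6.84) than in any other sample (5.28 to 6.47). A fit with this covariate therefore separates depth from group poorly, and its SEs were larger. The SE rose from 0.290 to 0.487 for Clec4g and from 0.406 to 0.681 for Lyve1. With the covariate in the fit all 10 log2 differences stayed below 0, with a median of -0.639. They ran from -1.325 (Lyve1) to -0.206 (Ptprb), with -0.239 for Stab2, -0.366 for Cdh5, -0.927 for Aqp1 and -0.931 for Clec4g. Samples of the 2 groups did not overlap for 8 of 10 members, all lower in MSC-EV, where 14.9% of tested genes had that pattern. The median log2 difference was -0.85 over the members and 0.01 over all tested genes, and 0.919% of tested genes were at or below the members' median. Which genes pass depended on single libraries. When HEK-EV replicate 1 was left out of the shared estimate of spread, 6 members (Aqp1, Bmp2, Clec4g, Lyve1, Oit3 and Pecam1) passed the limma adjusted threshold. In that fit 394 of the 13820 tested genes passed as lower and 599 in either direction. Pecam1 alone passed without HEK-EV replicate 3, where 360 tested genes passed as lower and 560 in either direction. Without the 4 samples with acinar transcripts the members' median was -1.37, which sets 1 library, MSC-EV replicate 2, the lowest of all 9 for all 10 genes, against PBS, so it is a value with no replicate check. MSC-EV replicates 1 and 2 were below every PBS sample for all 10 genes, and MSC-EV replicate 3 for 8.

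Between HEK-EV and PBS, 9 of 10 members had a difference below 0, as did 39.0% of tested genes, but the differences were small, from -0.25 (Oit3) to 0.07 (Pecam1) on the log2 scale with a median of -0.16 against 0.03 over all tested genes. By limma 0 members passed adjusted p (0% of all genes did) and 0 had an unadjusted p under 0.05, against 1.27% of tested genes lower and 3.58% in either direction at that level. No member had groups that did not overlap, a pattern seen in the lower direction for 2.29% of tested genes. HEK-EV replicate 1 was below every PBS sample for all 10 genes, and HEK-EV replicate 3 was the highest of all 9 samples for 8. The median turned to 0.14 without HEK-EV replicate 1, so its direction rested on that library. With any other single sample left out the median stayed below 0, from -0.39 (without HEK-EV replicate 3) to -0.08 (without PBS replicate 1). Without the 4 samples with acinar transcripts it was 0.36, which is the value of HEK-EV replicate 3 alone against PBS.

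Between the vesicle groups, all 10 members had lower means in MSC-EV than in HEK-EV, where 53.8% of tested genes had a difference below 0, with a median log2 difference of -0.77 against -0.02 over all tested genes. By limma, 0 members passed adjusted p, for which the background is 4.40% of tested genes lower and 5.91% in either direction. The closest was Pecam1, at -0.84 (SE 0.220, limma adjusted p = 0.0554), followed by Lyve1 at -1.35 (SE 0.406, limma adjusted p = 0.0827). At an unadjusted p under 0.05, 8 members were lower against a background of 15.1%. That count was 3 without any 1 of HEK-EV replicate 2, HEK-EV replicate 3 and MSC-EV replicate 2, and 3 with coverage per FPKM as a covariate. It was 5 with only the 6 samples compared or with no filter, and 10 without HEK-EV replicate 1. Only Pecam1 had groups that did not overlap, a pattern of 17.5% of tested genes in that direction. For all 10 members every MSC-EV sample was below HEK-EV replicates 2 and 3, and the overlap came from HEK-EV replicate 1, which lay within the MSC-EV range for 9. The median was -1.05 without HEK-EV replicate 1, -0.53 without HEK-EV replicate 3 and -0.53 without MSC-EV replicate 2. This comparison and the one with PBS share the MSC-EV samples, and both comparisons with PBS share the PBS samples, so they are not separate evidence.

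**Figure D2:**
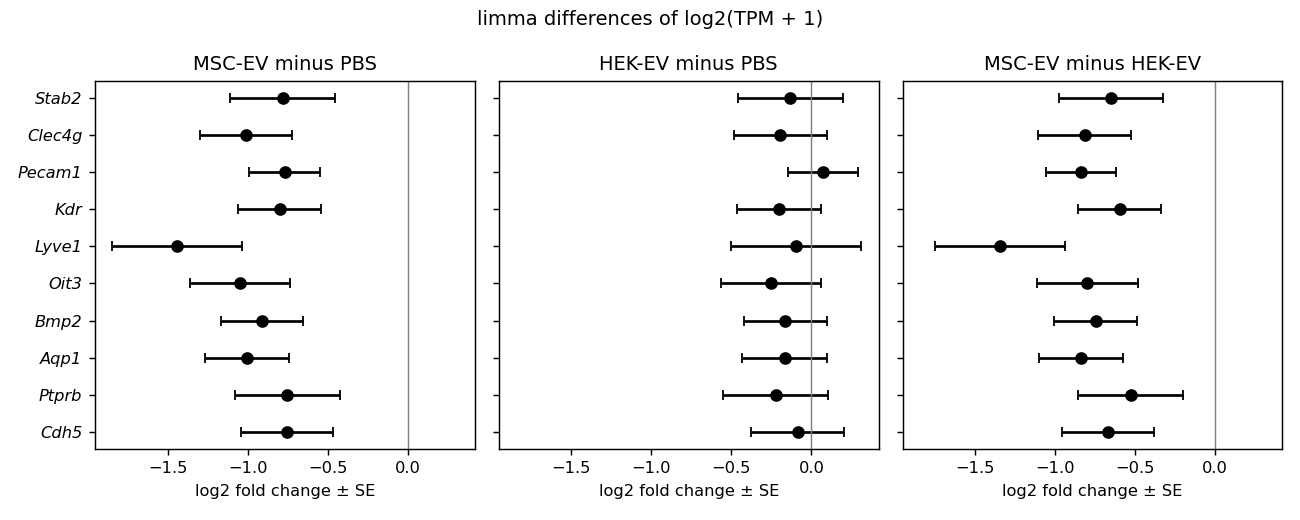
Difference of log2(TPM + 1) with its standard error for each of the 10 genes in the 3 comparisons, from limma. All 10 points of MSC-EV against PBS and of MSC-EV against HEK-EV lie below 0, and those of HEK-EV against PBS lie between -0.25 and 0.07.

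The 10 genes varied together between samples. The summed level of the 10 genes was 480, 442 and 389 TPM in PBS, 255, 429 and 553 TPM in HEK-EV, and 231, 160 and 311 TPM in MSC-EV. Relative to each gene's own PBS mean, the median over the genes was 1.10, 1.01 and 0.895 in PBS, 0.565, 0.995 and 1.28 in HEK-EV, and 0.558, 0.359 and 0.683 in MSC-EV. MSC-EV replicate 2 was the lowest of all 9 samples for 10 of 10 genes, MSC-EV replicate 3 the highest of its group for 10 and HEK-EV replicate 3 the highest of its group for 10. The coefficient of variation within a group was 3.87% to 26.4% over the genes in PBS, 32.2% to 46.5% in HEK-EV and 17.3% to 53.4% in MSC-EV. As a description, the Pearson r of each gene's log2 level with the mean of the other 9 was 0.947 to 0.994 over the 9 samples, and 0.924 to 0.992 after group means were removed. These values share libraries and their scaling and carry no test.

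**Figure D3:**
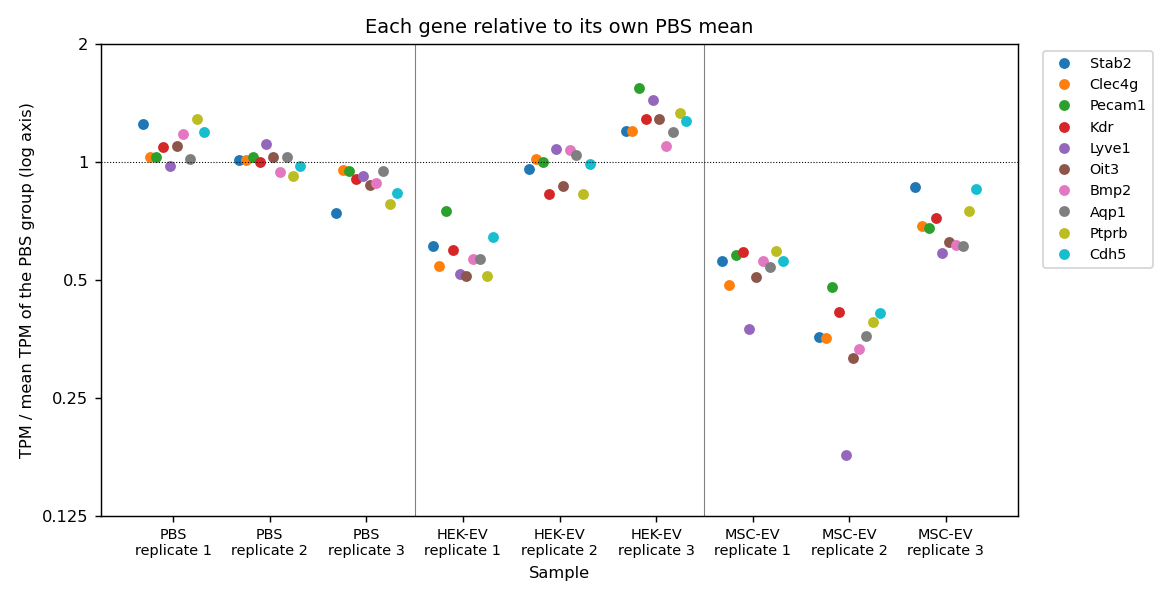
TPM of each of the 10 genes divided by its own PBS mean, on a log2-spaced axis, in each of the 9 samples (1 color per gene). The 10 genes lie close together within a sample, with HEK-EV replicate 1 low, HEK-EV replicate 3 high and Lyve1 the lowest point in all 3 MSC-EV samples.

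Relative to PBS, Lyve1 was the lowest member in MSC-EV. It had the lowest ratio to its PBS mean in each MSC-EV sample, 0.374, 0.179 and 0.585. Lyve1 divided by Stab2 in the same sample was 0.583 to 0.926 in PBS, 0.631 to 0.890 in HEK-EV and 0.374 to 0.507 in MSC-EV, so the MSC-EV range was below both others. The ratio of Clec4g to Stab2 was 2.09 to 3.26 in PBS, 2.24 to 2.69 in HEK-EV and 2.02 to 2.51 in MSC-EV, and that of Kdr to Cdh5 was 0.360 to 0.426, 0.329 to 0.401 and 0.330 to 0.415, with groups overlapping in both. These ratios were chosen after the values were seen and carry no test.

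The 5 genes outside the set whose log2 level followed the members' mean most closely over the 9 samples were C1qtnf1 (Pearson r 0.992), F8 (0.991), Flt4 (0.990), Ephb4 (0.989) and Adgrl4 (0.989). F8 encodes coagulation factor VIII, Flt4 the receptor VEGFR3 and Ephb4 a receptor of veins. Of the 25 genes ranked highest, 6 were in the endothelial lists used here: F8, Flt4, Adgrl4, Tek, Gata4 and Egfl7. Flt4 was at 21.3, 20.1 and 18.4 TPM in PBS, 10.2, 18.9 and 29.4 in HEK-EV, and 9.21, 6.73 and 13.3 in MSC-EV, with the same low and high samples as the members.

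Other genes of sinusoidal endothelium split. Of 18 listed, 17 were matched and 16 tested, and 13 of these were below 0 in MSC-EV against PBS, with a median log2 difference of -0.61. Fcgr2b, an inhibitory IgG receptor shared with macrophages and B cells, was lower and passed, at 376 ± 32.4 TPM in PBS, 378 ± 23.8 in HEK-EV and 259 ± 15.4 in MSC-EV (log2 difference -0.53, SE 0.0785, limma adjusted p = 0.0171). Stab1, the scavenger receptor related to Stab2 and also made by macrophages, passed in the opposite direction, as 1.86% of tested genes did, at 177, 109 and 104 TPM in PBS, 109, 138 and 176 in HEK-EV, and 279, 208 and 252 in MSC-EV (log2 difference 0.95, SE 0.225, limma adjusted p = 0.0457). Mrc1, a mannose receptor of both cell types, and the transcription factor gene Maf had log2 differences of 0.10 and 0.16 and did not pass. Counts over this list were 9 lower at an unadjusted p under 0.05 (background 13.1%) and 10 lower without overlap (background 14.9%).

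Of 24 general endothelial genes, all tested, 2 passed as lower in MSC-EV against PBS (background 3.25%). In all, 23 had a difference below 0 (47.7% of tested genes did), 19 had an unadjusted p under 0.05 as lower (background 13.1%) and 23 did not overlap PBS (background 14.9%), and the median was -0.72. Icam2, an adhesion ligand also on leukocytes, passed at 35.9 ± 0.603 TPM in PBS against 27.4 ± 1.82 in MSC-EV (log2 difference -0.38, SE 0.068, limma adjusted p = 0.0244), and so did the VEGF receptor gene Flt1 at 17.2 ± 3.35 against 10.4 ± 1.39 TPM (-0.67, SE 0.147, limma adjusted p = 0.0376). Among 10 genes of capillary, venous and arterial endothelium, 8 were tested, 6 were below 0, 2 were lower at an unadjusted p under 0.05 (background 13.1%) and the median was -0.34. In this list 4 genes were lower without overlap (background 14.9%). Plvap, Efnb2, Selp and Sox17 were at -0.68, -0.40, -0.38 and -0.30, and Cd34, Rgcc and Vwf at -0.07, 0.10 and 0.15. Ly6c1 passed, at 89.0 ± 35.9 TPM in PBS and 32.1 ± 3.0 in MSC-EV (log2 difference -1.35, SE 0.275, limma adjusted p = 0.0313). Ly6c1 is near-identical to the monocyte gene Ly6c2, so reads may be split between them. Lymphatic endothelium gave little signal: 1 of its 5 genes was tested, Pdpn at -0.07 (limma adjusted p = 0.919), and Prox1, which defines that lineage, was at most 1.03 TPM.

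Ligands and partners of the members' pathways gave 1 call. Of 9 VEGF and angiopoietin ligands and coreceptors 6 were tested, and Vegfb passed as higher, at 14.0 ± 4.35 TPM in PBS, 12 ± 1.05 in HEK-EV and 23.6 ± 3.11 in MSC-EV (log2 difference 0.74, SE 0.180, limma adjusted p = 0.0481; background 1.86%). With 1 sample left out, Vegfb passed in 1 of 9 fits, that without PBS replicate 1. Vegfa, the ligand of Kdr, was at 14.1 ± 2.48 in PBS and 21.2 ± 3.40 TPM in MSC-EV and did not pass (0.56, SE 0.141, limma adjusted p = 0.0537). The other 4 did not pass either, with log2 differences of 0.26 (Nrp1), 0.62 (Nrp2), -0.37 (Vegfc) and -0.20 (Angpt2). In the BMP pathway, which Bmp2 belongs to, 15 of 18 genes were tested and 0 passed by limma, 10 of them below 0 with a median of -0.12. The receptor genes Bmpr2 and Acvr1 were at -0.12 and -0.04. The target genes Id2 and Id3 were at 541 ± 86.9 and 305 ± 54.4 TPM in PBS and at 590 ± 15.7 and 269 ± 8.64 in MSC-EV, and Bmp6, the partner of Bmp2 in iron sensing, was at 2.78 ± 0.689 and 1.96 ± 0.955. The log2 differences of these 3 from limma were 0.14, -0.17 and -0.39, none past the threshold.

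Other cell types of the liver were measured beside the members, and their part in the members' result was not tested. Kupffer cells are the resident macrophages of the sinusoids. The median of 10 of their genes, lowest in HEK-EV replicate 1 and MSC-EV replicates 1 and 2, was, relative to PBS, 1.12, 1.01 and 0.869 in PBS, 0.595, 1.03 and 1.18 in HEK-EV, and 0.683, 0.540 and 0.964 in MSC-EV. All 10 were below 0 in MSC-EV against PBS (47.7% of tested genes were), with a median of -0.50, 0 passed by limma and 2 had an unadjusted p under 0.05 (background 13.1%). Nr1h3 and Il18bp of that list were at -0.03 and -0.02. Clec4f, which defines these cells in mice, was at 614 ± 67.5 TPM in PBS and 357 ± 124 in MSC-EV (-0.83, SE 0.296, limma adjusted p = 0.130), and Cd5l at 1247 ± 215 and 916 ± 193 (-0.45, SE 0.217, limma adjusted p = 0.251). The summed level of the Kupffer list was 3285 to 4022 TPM in PBS, 2357 to 4602 in HEK-EV and 1981 to 3304 in MSC-EV. The members' sum divided by the Kupffer sum was 0.119 in each PBS sample, 0.108 to 0.120 in HEK-EV and 0.0809 to 0.0942 in MSC-EV, so it was lower in all 3 MSC-EV samples than in the other 6. Stab2 divided by Clec4f overlapped between groups, from 0.0492 to 0.0667 in PBS and 0.0482 to 0.0650 in MSC-EV.

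**Figure D4:**
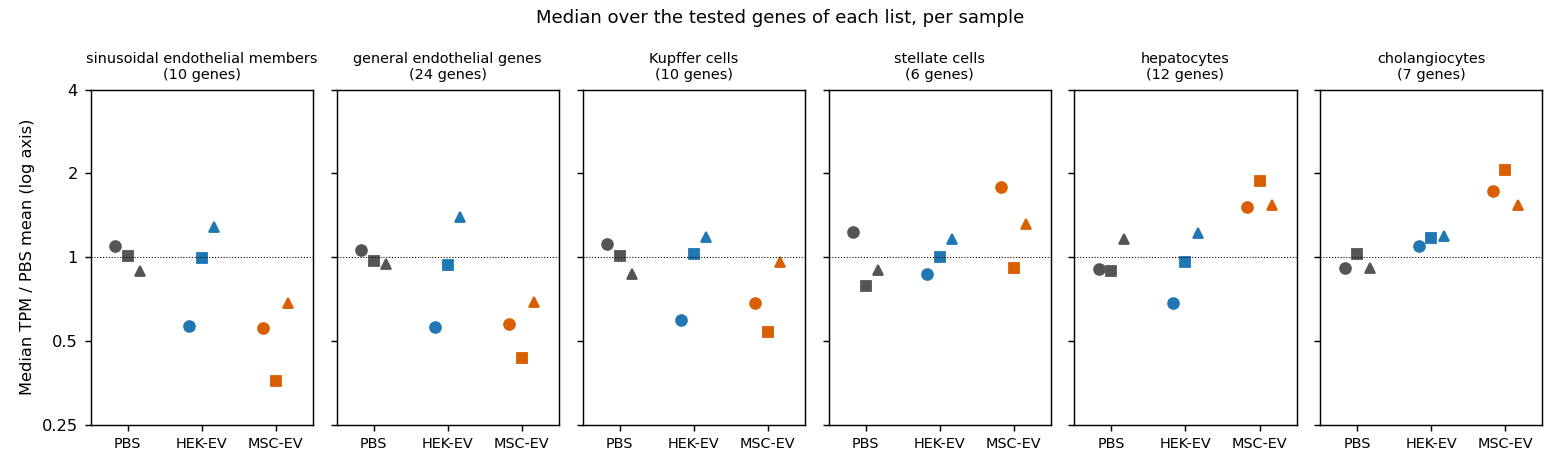
Median over the tested genes of each list of TPM relative to the PBS mean, in each of the 9 samples (circle, square and triangle for replicates 1, 2 and 3), on a log axis. The endothelial and Kupffer lists are low in HEK-EV replicate 1 and in MSC-EV replicates 1 and 2. In MSC-EV replicate 3 the endothelial lists are at 0.683 (members) and 0.688 (general endothelial genes) and the Kupffer list is at 0.964. The hepatocyte and cholangiocyte lists are at 1.52 to 1.88 and 1.54 to 2.05 in the MSC-EV samples.

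Most hepatocyte and bile duct genes had higher means in MSC-EV than in PBS. Of 12 hepatocyte genes, 11 were above 0 in MSC-EV against PBS (median 0.71), as were 52.3% of all tested genes, and 3 passed as higher (background 1.86%): Apoa1 (0.72, limma adjusted p = 0.0381), Trf (0.43, limma adjusted p = 0.0386) and Cyp2e1 (1.39, limma adjusted p = 0.0386). The 1 gene below 0 was Hp, the hemoglobin scavenger haptoglobin, at 425 ± 127 TPM in PBS and 235 ± 16.6 in MSC-EV (-0.81, limma adjusted p = 0.0534), while Alb, albumin, was at 152 ± 28.8 and 288 ± 37.2 (0.93, limma adjusted p = 0.0591). The summed level of all 12 genes, in which these 2 partly offset each other, was 772 to 1050 TPM in PBS, 796 to 1104 in HEK-EV and 946 to 1077 in MSC-EV. Of 8 cholangiocyte genes 7 were tested, and Krt19 (1.54, limma adjusted p = 0.0231), Epcam (1.17, limma adjusted p = 0.0171) and Sox9 (0.72, limma adjusted p = 0.0310) passed as higher (background 1.86%), from means of 1.17, 1.19 and 0.412 TPM in PBS to 5.53, 3.95 and 1.33 in MSC-EV. In MSC-EV every sample had at least 1.12 TPM of Sox9, against at most 0.48 in PBS and 0.72 in HEK-EV, so it met the filter of 1 TPM only through the group where it is high and its call is no support for a rise. Aqp1 is on that list too and was its 1 gene below 0. Of 10 stellate cell genes 6 were tested and 0 passed by limma, with a median of 0.27 and sums of 38.8 to 48.6 TPM in PBS and 37.8 to 55.7 in MSC-EV. Its most abundant genes, the growth factor gene Hgf and the smooth muscle actin gene Acta2, were at 23.1 ± 3.14 and 8.53 ± 1.44 TPM in PBS and at 23.6 ± 3.89 and 8.38 ± 0.282 in MSC-EV.

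Blood cells can share a member. For platelets, which carry Pecam1, 3 of 8 genes were tested. Of these Pf4 passed as higher (background 1.86%), at 167 ± 31.1 TPM in PBS and 295 ± 49.3 in MSC-EV (0.83, SE 0.177, limma adjusted p = 0.0348). Sums ran from 138 to 201 TPM in PBS, 132 to 190 in HEK-EV and 257 to 353 in MSC-EV, nearly all of it Pf4. The other tested genes, Ppbp and Treml1, had log2 differences of -0.22 and -0.04 and did not pass. The platelet-defining integrin Itga2b, too low to be tested, was at 0.969 ± 0.196 TPM in PBS, 0.935 ± 0.235 in HEK-EV and 0.497 ± 0.157 in MSC-EV, and 4 other genes of the list stayed under 0.2 TPM in every sample. For red blood cells, which carry Aqp1, the 8 genes summed to 0.596 to 4.71 TPM. The hemoglobin genes Hba-a1 and Hba-a2, near-identical copies whose reads can be shared, were at no more than 1.88 and 1.04 TPM, and Slc4a1, the band 3 anion exchanger, was listed at 0 in every sample. Among 10 genes of the myeloid gate itself 8 were below 0, with a median of -0.20, and 2 passed as lower (background 3.25%) and 0 as higher by limma, where 1 had an unadjusted p under 0.05 as higher. Those that passed, Ptprc, the pan-leukocyte phosphatase CD45, and the monocyte gene Ly6c2, were at 585 ± 65.9 and 986 ± 418 TPM in PBS and 424 ± 4.85 and 359 ± 22.0 in MSC-EV (-0.46 and -1.35, limma adjusted p = 0.0271 and 0.0376). Itgam, the gate gene, was at 330 ± 44.3 and 229 ± 29.6 TPM (-0.53, limma adjusted p = 0.0553) and did not pass. Nor did Cd68, a macrophage lysosomal gene with a difference above 0, at 1981 ± 203 and 2465 ± 85.9 TPM (0.32, limma adjusted p = 0.0513). The log2 differences of Adgre1, Csf1r, Lyz2 and Fcgr3 were 0.09, -0.06, -0.13 and -0.05. The 15 genes of these lists that passed, Sox9 included, kept their direction in each alternative fit that tested them, 18 (Sox9), 19 (Cyp2e1, Epcam and Krt19) or 20 fits a gene. Their calls did not all hold: 0 of the 15 passed without PBS replicate 2, PBS replicate 3 or MSC-EV replicate 2, 1 without MSC-EV replicate 1, 6 without HEK-EV replicate 2 and 6 without MSC-EV replicate 3. Of the 15, 2 passed with only the 6 samples compared, 4 with no filter, 5 with the replicate block, 8 with depth as a covariate and 0 with the acinar split as a term. Without the 4 samples with acinar transcripts 0 of all tested genes passed, with 1 library in each vesicle group, so that fit says nothing of these calls.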

How the data were processed

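RNA-seq of 9 samples of CD11b+ liver cells was used, in 3 groups assigned by the treatment in their labels. Trizol RNA treated with DNase went into TruSeq Stranded mRNA libraries, per the labels' protocols. The submitters' processing notes name HISAT2 2.1.0, StringTie and the genome build mm10. Each sample had 1 table of genes, with per-base read coverage, FPKM and TPM as deposited by the authors and named so in the file headers. Use of strand when assigning reads is not given in the sources used here. Gene IDs were matched to the RefSeq table of GRCm38.p6, where 45679 of 45777 (99.79%) had a symbol and 96.37% of those had the files' start and end. Rows of the same gene were summed.

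TPM was used as log2(TPM + 1), with a pseudocount of 1, after genes below 1 TPM in more than 6 of the 9 samples were dropped. A linear model in limma 3.58.1 under R 4.3.3 (eBayes with a trend) was fitted to all 9 samples with no covariate, so the groups share 1 estimate of spread. Tests were two-sided, adjusted p is Benjamini-Hochberg over 13820 genes and the threshold was 0.05. A permutation test of 3 against 3 cannot reach that threshold and was not made. No read counts were used here, so no counting interval is given. The fit was tested on simulated data. All 10 members are named. Of each other list up to 4 genes past the threshold in MSC-EV against PBS are named by smallest p, or, where none passed, the 2 of highest mean TPM, together with the 5 genes most like the members. Hp, Alb, Cd68, Adgre1, Fcgr3, Ppbp, Treml1, Plvap, Efnb2, Selp, Sox17, Cd34, Rgcc, Vwf, Nr1h3, Il18bp, Vegfa, Vegfc, Nrp1, Nrp2, Angpt2, Bmp6, Bmpr2, Acvr1, Mrc1, Maf, Itgam, Csf1r, Lyz2, Itga2b, Slc4a1 and the predicted genes fall outside that rule: they, and the ratios between genes, were picked with their values in view. The members and the lists were chosen with earlier results of these data known. In 20 alternatives the choices below were changed in turn: the pseudocount (0.1), the filter (none, or 5 TPM), FPKM for TPM (with the filter then at 1 FPKM, which left 11995 genes), median-of-ratios scaling, a fit of only the 6 samples compared, weights by array quality, the replicate number as a block, each sample left out, and 3 added after seeing the data: the acinar split as a term (at least 4 of 8 acinar genes above 1 TPM), no samples with acinar transcripts, and depth, taken as coverage per FPKM, as a covariate. Python 3.11.15 with numpy 2.4.6, pandas 2.3.3 and matplotlib 3.10.9 was used for tables and figures.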

Additional observations from a re-analysis of the deposited data

How the results depend on the processing

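The direction of the members did not depend on the processing in the comparisons with MSC-EV: all 10 were below 0 in 20 of 20 alternative fits against PBS (median -1.372 to -0.639) and in 20 of 20 against HEK-EV (median -1.659 to -0.53). Several of these fits cannot move a difference. With another filter, only the 6 samples compared, the replicate block or a sample of the third group left out, the medians stayed at -0.854 (PBS) and -0.772 (HEK-EV). Sizes and calls did depend on the processing. With depth as a covariate the members' differences in MSC-EV against PBS ran from -1.325 (Lyve1) to -0.206 (Ptprb), with 0 under an unadjusted p of 0.05. That fit separates depth from group poorly, since every MSC-EV sample had more coverage per FPKM than any other sample. Against PBS 9 members passed with array quality weights (all but Ptprb), and 0 to 6 when 1 sample was left out. Against HEK-EV 1 passed with a minimum of 5 TPM (Pecam1), where 844 of 10488 tested genes passed in either direction and 674 as lower. With array quality weights 5 passed (Aqp1, Bmp2, Clec4g, Lyve1 and Pecam1), where 2081 of 13820 tested genes passed in either direction. Over all genes, calls in MSC-EV against PBS numbered 706, and 361 with no filter, 77 with only the 6 samples compared, 4163 with array quality weights, 404 with the replicate block, 21 with the acinar split as a term, 0 without the 4 samples with acinar transcripts, 1340 with depth as a covariate and 5 (without PBS replicate 2) to 1861 (without PBS replicate 1) when 1 sample was left out. With FPKM there were 477, of which 58.7% were higher, against 36.4% of the 706. In MSC-EV against HEK-EV they numbered 817, and 387 with no filter, 436 with FPKM, 501 with median-of-ratios scaling, 2081 with array quality weights, 448 with the replicate block, 0 without the 4 samples, 1446 with depth and 0 to 1369 when 1 sample was left out. In HEK-EV against PBS they numbered 0, and 4 with no filter and 0 to 2 when 1 sample was left out. Leaving out the 4 samples with acinar transcripts leaves 1 library in each vesicle group, HEK-EV replicate 3 and MSC-EV replicate 2, the first the highest of all 9 samples for 8 members and the second the lowest for 10. The spread of these lone libraries is assumed to equal that of PBS. The members' median was then -1.372 (MSC-EV against PBS), 0.359 (HEK-EV against PBS) and -1.659 (MSC-EV against HEK-EV). HEK-EV against PBS changed sign for all 10 members in at least 1 fit. When 1 sample was left out the log2 difference ranged from -0.342 to 0.131 for Stab2, -0.422 to 0.143 for Clec4g, -0.199 to 0.307 for Pecam1, -0.487 to 0.055 for Kdr, -0.396 to 0.310 for Lyve1, -0.559 to 0.086 for Oit3, -0.314 to 0.118 for Bmp2, -0.374 to 0.155 for Aqp1, -0.548 to 0.098 for Ptprb and -0.307 to 0.175 for Cdh5. Without the 4 samples it was 0.292 for Stab2, 0.259 for Clec4g, 0.367 for Kdr, 0.511 for Lyve1, 0.364 for Oit3, 0.140 for Bmp2, 0.247 for Aqp1, 0.424 for Ptprb and 0.353 for Cdh5. For Pecam1, above 0 in the reported fit too (0.071), it was 0.61. With depth as a covariate the sign turned for Stab2 (0.175), Bmp2 (0.005), Ptprb (0.084) and Cdh5 (0.133). The cause of these changes was not tested. Same-numbered samples did not deviate alike: over 9 such pairs the correlation of deviations from group means was -0.499 to 0.058, and with the replicate block 0 members passed in any comparison. Depth in reads is unknown and coverage per FPKM is only a stand-in for it, so no detection limit is given.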
